A study of Mus musculus with 18 samples.

Results

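White adipose tissue of mice given prednisone once a week was compared with white adipose tissue of mice given vehicle, across every gene detected in the tissue. Prednisone is a synthetic glucocorticoid, a prodrug that 11-beta-hydroxysteroid dehydrogenase type 1 (encoded by Hsd11b1) converts to the active steroid. Values are on the TPM scale, on which the authors gave each transcript its share of a fixed total per library, and they were added up over the transcripts of each gene symbol. A gene was described if 3 or more of the 9 adipose libraries held 1 TPM of it or more, which left 14150 of the 33641 symbols in the table. This choice did not use the difference between the groups directly. A group holds 3 libraries, however, so a gene could pass through 1 group alone. Mrgprg, which was called higher, passed in this way, with only its weekly libraries above 1 TPM (2.66, 4.06 and 3.92 TPM). The number of such genes was not counted.

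All mice were obese wild-type males of the inbred strain DBA/2J. They had been on a high-fat diet for 12 weeks and stayed on it during the 12 weeks of treatment. Their age is given as about 20 weeks. This cannot be the age at collection, since the times of diet and treatment together exceed it. Weekly mice received 1 mg/kg prednisone into the peritoneum in 100 ul of PBS, drawn from a stock in DMSO, once a week. Daily mice received the same dose every day. Vehicle mice are labelled as given vehicle daily, and the labels do not say whether the weekly mice were injected with vehicle on the other days. Tissue was collected 24 hours after the last injection, and each of the 9 mice gave quadriceps muscle and white adipose tissue, so each group has 3 mice by the labels. The fat depot is not named in the labels. The design text of the series counts fewer daily adipose libraries than the 3 that the labels and the table hold.

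White adipose tissue consists of lipid-filled adipocytes embedded in a stroma of fibroblast-like progenitors, vessels, macrophages and other immune cells, with a mesothelial sheet over visceral depots. Glucocorticoids enter cells, bind the glucocorticoid receptor and change the transcription of genes that carry its response elements. In fat they are known to act on adipocyte differentiation, lipolysis, lipid storage and inflammation. Receptor activity falls as the drug is cleared, so weekly and daily dosing differ in how long the receptor stays active.

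Several features of the libraries bear on all values below. The mature adipocyte markers summed to 44600, 45220 and 45610 TPM with vehicle and to 43620, 43720 and 43000 with weekly prednisone, whereas 16 of 20 markers of the male reproductive tract were at 0. The third library of a group held the middle value for 53.3% of genes with vehicle, 54.8% with weekly and 44.1% with daily prednisone, where 33.3% would be an equal share, counted over the 8247 genes averaging 10 TPM or more. The labels give these as separate libraries, but it was not resolved whether the third libraries are independent of the others, and every SD, SE and p below takes the 3 libraries of a group as independent mice. Skeletal muscle transcripts were high in weekly 2, weekly 3 and daily 2 (Ckm, muscle creatine kinase, at 176, 130.4 and 109 TPM) and low in the other 6 libraries (13.2 to 35.0 TPM). The 18 skeletal muscle markers tested had a median difference of 1.69 between weekly prednisone and vehicle, with 0 called, and of -0.08 without those 3 libraries. Scaling moved the values as a whole: the median gene changed by 0.13 on the log2 scale as deposited, and by -0.02 after TMM scaling, which equalizes the bulk of the genes. Transcript length moved with the change, with a median of 2972.5 bases among genes called higher, 938.5 among genes called lower and 2263 among all genes. The part of these features in the results was not tested, so counts after TMM scaling and without single libraries are given beside the results. The depth is unknown because the TPM scale drops read counts, and in a whole tissue fewer cells of a type and less RNA per cell cannot be told apart.

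After weekly prednisone, 1052 of the 14150 genes (7.43%) differed from vehicle, called where the Benjamini-Hochberg adjusted p of limma was under 0.05. Of these, 809 genes (5.72%) were higher and 243 (1.72%) were lower. The changes were mostly small, with a median size of 0.59 on the log2 scale for genes called higher and 0.37 for genes called lower. Only 50 of the genes called higher and 14 of those called lower changed by 2-fold or more. In all 1052 the 3 weekly values lay entirely above or entirely below the 3 vehicle values, as they did for 5016 of the 14150 genes. An exact permutation test of 3 against 3 libraries cannot go below p = 0.1, so the calls rest on the spread that limma pools over genes. Changes of single genes are given as log2 fold changes on the log2(TPM + 1) scale ± SE, in parentheses where they follow the levels. Under TMM scaling 407 genes (2.88%) were higher and 841 (5.94%) lower, so the share of higher genes went from 76.9% to 32.6% of the calls, and all 243 lower genes and 407 of the 809 higher genes kept their call. Every count of list members called below is to be read beside these shares of all genes, 5.72% higher and 1.72% lower as deposited and 2.88% and 5.94% after TMM scaling.

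**Figure D1:**
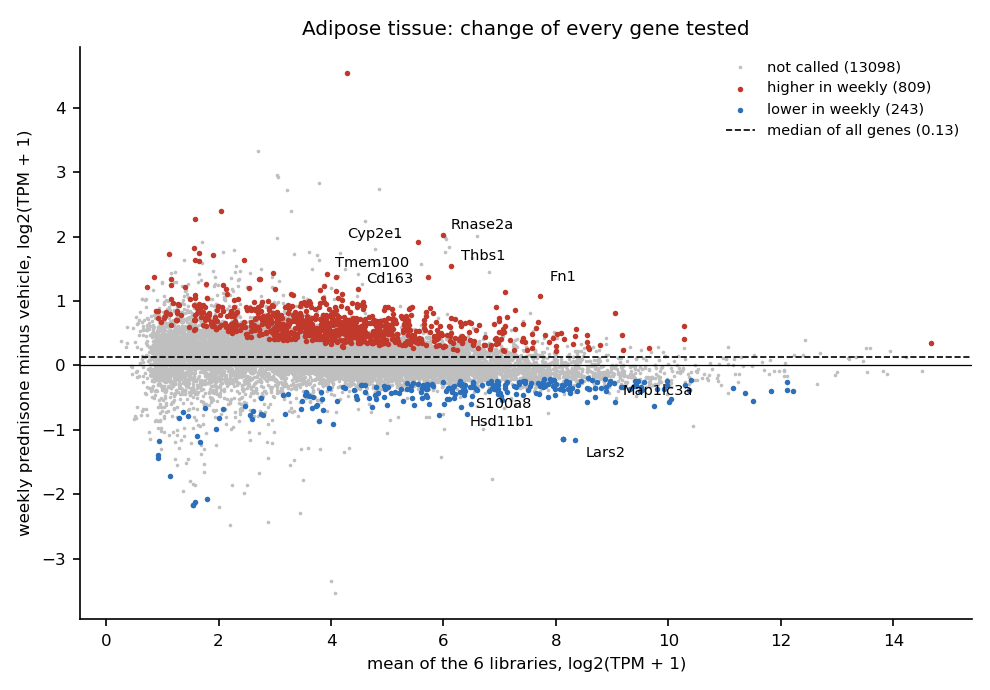
Log2 difference between weekly prednisone and vehicle (vertical axis) against the mean level of the 6 libraries as log2(TPM + 1) (horizontal axis) for the 14150 genes tested; red points are the 809 genes called higher, blue points the 243 called lower, and the dashed line is the median of 0.13. Genes called higher spread to larger differences than genes called lower, with Thbs1 at 1.54 and Hsd11b1 at -0.65.

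The count depended on single libraries. Without vehicle 3 it was 64 genes, without weekly 3 it was 66, and without the third library of every group only Thbs1 was called. The direction of the 1052 genes could not change in these removals, because the weekly and vehicle values of each did not overlap. The other single-library removals left 360 to 1511 genes. In each of the 9 removals 48 genes stayed called, 44 of them higher and 4 lower, and all 48 were also called after TMM scaling. The 4 lower genes were Map1lc3a, Gstt1, Hsd11b1 and S100a8. Without weekly 2, weekly 3 and daily 2, the libraries high in muscle transcripts, 2138 genes were called. That fit leaves 1 weekly library, which is assumed to vary like the other groups, as for every value given without those 3 libraries.

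**Figure D2:**
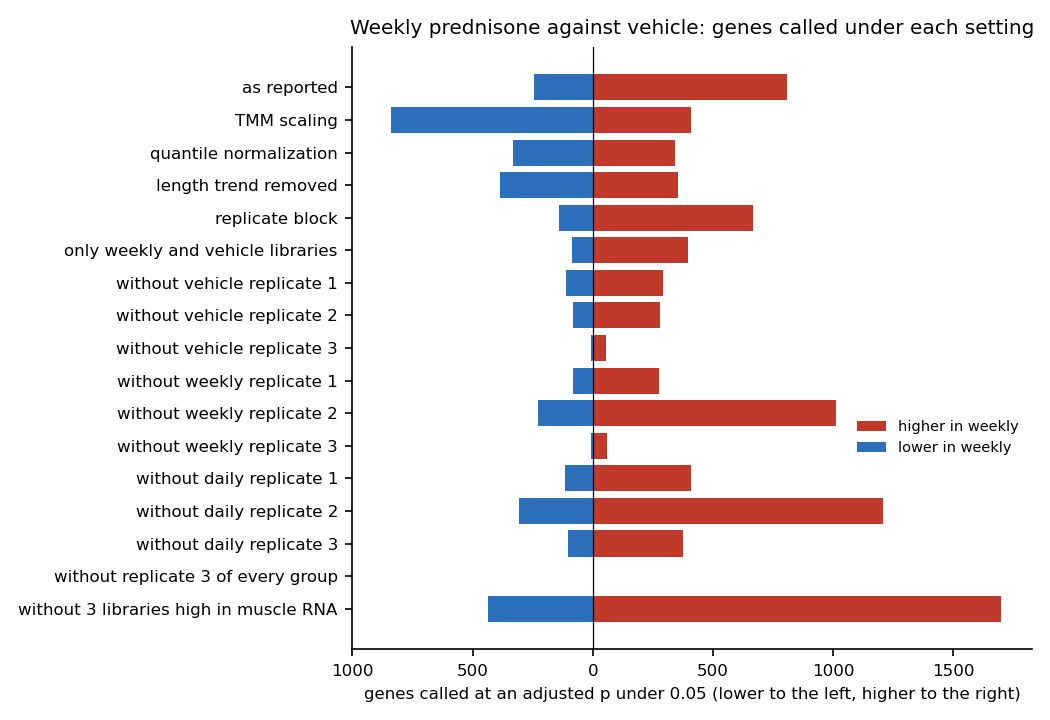
Number of genes called at an adjusted p under 0.05 for weekly prednisone against vehicle, with bars to the right for higher and to the left for lower genes, under the reported setting and 16 others. Bars are shortest without vehicle replicate 3 (56 higher, 8 lower), without weekly replicate 3 (58 and 8) and without replicate 3 of every group (1 and 0), and the lower genes outnumber the higher after TMM scaling.

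Thrombospondin 1 (Thbs1), a secreted matrix glycoprotein that activates latent TGF-beta and binds CD36 and CD47, had the smallest p of all genes. It stood at 33.9, 35.7 and 34.8 TPM in the vehicle libraries, at 110.1, 98.7 and 100.3 TPM in the weekly and at 58.4, 51.8 and 58.2 TPM in the daily libraries. The 3 groups did not overlap, and the daily libraries lay between the others. The mean went from 34.8 ± 0.882 to 103 ± 6.16 TPM (SD, n = 3), a log2 fold change of 1.54 ± 0.07, adjusted p = 2.06e-05. The gene, ENSMUSG00000040152.8, lies on the plus strand at chr2:118111876-118127133 of GRCm38. Its main transcript, ENSMUST00000039559.8, made up 98.8% of the gene's TPM in both groups.

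Of 37 tested collagen and matrix genes, 17 were called higher and 0 lower, with a median log2 difference of 0.42 against 0.13 over all genes. After TMM scaling 10 were higher, and single-library removals left between 2 and 23. Fibronectin (Fn1), the fibril-forming glycoprotein that binds integrins (chr1:71585520-71653200), stood at 144, 124 and 132 TPM with vehicle and at 331, 258 and 263 TPM with weekly prednisone, a log2 fold change of 1.08 ± 0.11, adjusted p = 0.00306. All weekly values exceeded all vehicle values, and the daily libraries, at 163, 135 and 161 TPM, lay closer to vehicle than to weekly prednisone. Fibrillin 1 (Fbn1), the backbone of microfibrils, went from 30.5, 26.0 and 28.6 TPM to 88.8, 64.8 and 72.1 TPM (1.37 ± 0.20, adjusted p = 0.0107). Fstl1, a secreted follistatin-like glycoprotein, stood at 88.1, 78.5 and 84.8 TPM and at 183, 139 and 154 TPM (0.91 ± 0.16, adjusted p = 0.0182). The collagen cross-linking enzymes Loxl2 and Loxl1 rose as well, Loxl2 from 11.9, 10.7 and 11.5 to 27.6, 19.1 and 21.5 TPM (0.92 ± 0.14, adjusted p = 0.0118) and Loxl1 by 0.42 ± 0.08 (adjusted p = 0.0196). In each of these genes weekly 1 or weekly 3 was the highest library.

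Of 18 metalloproteinases, which cut matrix, and their inhibitors 4 were called higher and 0 lower (median 0.27), with 2 higher and 1 lower after TMM scaling and 0 to 5 higher in single-library removals. The 4 were Adamts1, a secreted protease that cleaves versican, Mmp19, a metalloproteinase, and the inhibitors Timp1 and Timp2. Timp2 stood at 162, 154 and 163 TPM with vehicle and 278, 214 and 231 TPM with weekly prednisone (0.58 ± 0.11, adjusted p = 0.0201). Adamts1 stood at 24.2, 25.8 and 25.9 against 39.5, 41.1 and 38.3 TPM (0.63 ± 0.10, adjusted p = 0.0161), Mmp19 rose by 0.35 ± 0.07 (adjusted p = 0.0218) and Timp1 by 0.66 ± 0.15 (adjusted p = 0.0373). Of the 10 matrix and protease genes named, Thbs1 and Fn1 were called in every single-library removal. The other calls were lost without vehicle 3 (8), weekly 3 (7), vehicle 2 (2), weekly 1 (2), daily 1 (1) and daily 3 (1), with numbers of genes in parentheses and an adjusted p of at most 0.116. Loxl1, Mmp19 and Timp1 were not called after TMM scaling (adjusted p 0.0682 to 0.0916).

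TGF-beta and activin signalling had 5 of 22 members called higher and 0 lower (median 0.32; 3 higher after TMM scaling, and 0 to 7 in single-library removals). The receptors Tgfbr2 and Tgfbr1 were among them, Tgfbr2 at 29.0, 30.5 and 28.8 TPM with vehicle and 56.9, 41.8 and 46.8 TPM with weekly prednisone (0.69 ± 0.13, adjusted p = 0.0209), and Tgfbr1 up by 0.51 ± 0.14 (adjusted p = 0.0491). Ltbp1 and Ltbp4, which anchor latent TGF-beta in the matrix, rose by 0.74 ± 0.16 (adjusted p = 0.0276) and 0.43 ± 0.08 (adjusted p = 0.0218). Ctgf, a matricellular protein induced by TGF-beta and by the mechanosensitive factors YAP and TEAD, went from 8.85, 7.80 and 7.99 TPM to 14.1, 12.9 and 12.4 TPM (0.62 ± 0.11, adjusted p = 0.0187). Its daily libraries stood at 6.54, 8.32 and 7.10 TPM, all but daily 2 below every vehicle library.

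Immediate early genes, which cells switch on within minutes of a stimulus, were called higher in 8 of 21 tested members, with 0 lower and a median of 0.39 (4 higher after TMM scaling, and 1 to 9 in single-library removals). The zinc finger factor Klf4 led them, at 21.5, 21.6 and 19.0 TPM with vehicle and 42.4, 34.8 and 42.4 TPM with weekly prednisone (0.91 ± 0.09, adjusted p = 0.00306). Cyr61, a matricellular relative of Ctgf, stood at 28.7, 29.2 and 33.9 against 50.8, 44.2 and 49.0 TPM (0.63 ± 0.09, adjusted p = 0.0107). Klf2, a factor that blood flow induces in endothelium, stood at 31.3, 31.5 and 30 against 47.6, 49.5 and 52.9 TPM (0.67 ± 0.11, adjusted p = 0.0146). The groups of each gene were apart by more than the spread within them. Zfp36, which binds and destabilizes cytokine mRNAs, rose by 0.39 ± 0.08 (adjusted p = 0.0266), Ier5 by 0.52 ± 0.10 (adjusted p = 0.0209) and Ier3 by 0.51 ± 0.10 (adjusted p = 0.0264).

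Among these signalling and early genes Klf4 alone was called in every single-library removal. The calls of the other 10 were lost without weekly 3 (10), vehicle 3 (9), vehicle 1 (6), weekly 1 (5), vehicle 2 (4), daily 1 (1) and daily 3 (1), with an adjusted p of at most 0.139. After TMM scaling Ier3, Zfp36, Ltbp4 and Tgfbr1 were not called (adjusted p 0.0529 to 0.101).

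Promoter letters are shown for 4 genes, 3 that hold a match to a motif searched and Fkbp5, a marker gene of glucocorticoid receptor activity, without a match. The windows are the 250 bases before the start site in RefSeq, GRCm38.p6, read 5′ to 3′ on the gene's strand, with motif matches in capitals. The motifs searched on both strands were the TEAD motif (GGAATG or CATTCC), the CArG box bound by serum response factor, the sterol regulatory element (TCACNCCAC) and the glucocorticoid response element (GNACANNNTGTNC). They occur in 12.6%, 1.47%, 1.05% and 0.387% of all 32851 windows of this length.
Cyr61 (chr3:145649986-145650235, minus strand): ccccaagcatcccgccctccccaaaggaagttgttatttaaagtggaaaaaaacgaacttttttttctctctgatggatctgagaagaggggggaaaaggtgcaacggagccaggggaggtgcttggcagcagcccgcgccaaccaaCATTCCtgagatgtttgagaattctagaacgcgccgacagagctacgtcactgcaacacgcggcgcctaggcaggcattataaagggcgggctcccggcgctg
Zfp36 (chr7:28379229-28379478, minus strand): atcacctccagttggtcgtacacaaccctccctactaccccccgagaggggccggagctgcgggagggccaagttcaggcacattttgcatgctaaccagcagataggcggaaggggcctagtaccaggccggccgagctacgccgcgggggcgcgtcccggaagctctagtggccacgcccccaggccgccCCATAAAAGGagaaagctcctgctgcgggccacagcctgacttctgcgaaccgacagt
Fkbp5 (chr17:28486150-28486399, minus strand): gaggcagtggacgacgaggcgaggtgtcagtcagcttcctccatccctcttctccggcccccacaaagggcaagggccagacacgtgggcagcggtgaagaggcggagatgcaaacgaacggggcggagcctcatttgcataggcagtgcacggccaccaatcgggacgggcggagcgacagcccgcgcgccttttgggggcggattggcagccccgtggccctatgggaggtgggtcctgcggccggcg
Mt1 (chr8:94178839-94179088, plus strand): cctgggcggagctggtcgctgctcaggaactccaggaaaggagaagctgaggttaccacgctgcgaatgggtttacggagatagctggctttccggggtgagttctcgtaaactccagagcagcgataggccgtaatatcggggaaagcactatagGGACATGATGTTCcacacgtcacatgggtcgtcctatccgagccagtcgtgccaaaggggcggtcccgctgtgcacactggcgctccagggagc
The capitals mark a TEAD motif 103 bases before the start of Cyr61, a CArG box 58 bases before that of Zfp36 and a glucocorticoid response element 94 bases before that of Mt1. Fkbp5 holds none of the 4 motifs in this window. Of the 23 immediate early genes listed, windows of 19 were counted, and 4 of those genes held a TEAD motif and 2 a CArG box. The other listed genes, Egr1 among them, are not in these counts, which therefore do not cover the whole list. Windows on the chromosome of Egr1 were dropped from the counts of genes, though not from the shares of all windows. A gene can have several windows, as Egr2 does, so counts of genes cannot be set against the shares of windows above. The letters are a description of the windows and show no binding.

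Fkbp5, a chaperone of the glucocorticoid receptor and a widely used marker of its activity, stood at 11.4, 12.3 and 11 TPM with vehicle and 15.3, 15.8 and 17.3 TPM with weekly prednisone (0.45 ± 0.09, adjusted p = 0.0232). The groups did not overlap, but after TMM scaling the difference was 0.28 (adjusted p = 0.083). Klf9, a transcription factor induced by glucocorticoids, rose by 0.44 ± 0.11 (adjusted p = 0.0423; 0.0646 after TMM scaling). These 2 were the only calls among 27 tested glucocorticoid receptor targets (median 0.21), a share near the 5.72% of all genes called higher. After TMM scaling 0 of the 27 were higher and 3 lower, where 5.94% of all genes were lower, and single-library removals left 0 to 4 higher. Tsc22d3, the glucocorticoid-induced leucine zipper, stood at 87.0, 109.5 and 102 TPM with vehicle and 102, 94.7 and 98.3 TPM with weekly prednisone (adjusted p = 0.943), and its groups overlapped. The same held for the clock gene Per1, at 7.48, 12.0 and 10.4 against 14.2, 11.5 and 12.6 TPM (adjusted p = 0.157), and for the metallothionein Mt1, at 489, 557 and 535 against 439, 564 and 553 TPM (adjusted p = 0.898). Pdk4, which inhibits pyruvate dehydrogenase, was higher in all 3 weekly libraries, by 0.29 ± 0.09, without passing the threshold (adjusted p = 0.0707).

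Hsd11b1, whose product turns prednisone and the inactive 11-dehydrocorticosterone into active steroids within cells, fell. The gene (chr1:193221634-193264075) stood at 90.2, 103 and 96.3 TPM with vehicle and at 67.6, 56.2 and 60 TPM with weekly prednisone (-0.65 ± 0.08, adjusted p = 0.00648). Every weekly library was below every vehicle library, and the daily libraries, at 78.4, 85.4 and 83.5 TPM, lay between them. TMM scaling gave -0.82 (adjusted p = 0.00294), and the call held in all 9 single-library removals. Its main transcript, ENSMUST00000161737.7, held 81.3% of the gene's TPM with vehicle and 79.0% with weekly prednisone, with overlapping libraries.

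The core clock list had 3 of 20 members called higher and 0 lower (median 0.20), but 1 higher and 2 lower after TMM scaling, and 0 to 4 higher in single-library removals. Of all genes 5.72% were higher, and 2.88% higher and 5.94% lower after TMM scaling. The 3 were the repressors Bhlhe40, at 16.2, 17.1 and 17.6 TPM with vehicle and 26.2, 23.7 and 25.8 TPM with weekly prednisone (0.55 ± 0.10, adjusted p = 0.0187), and Nfil3 (0.35 ± 0.07, adjusted p = 0.0276), and the activator Arntl (0.45 ± 0.11, adjusted p = 0.04). All tissue was taken 24 hours after an injection, and the clock time of collection is not given in the sources used here. Of the 6 glucocorticoid and clock genes called, only Hsd11b1 passed in every single-library removal, and the others were lost without vehicle 3 (5), weekly 3 (5), vehicle 1 (3), weekly 1 (3), daily 3 (3), daily 1 (2) and vehicle 2 (1), with an adjusted p of at most 0.118. After TMM scaling Hsd11b1 and Bhlhe40 were still called.

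Macrophage genes were called higher in 5 of 21 members, with 0 lower and a median of 0.33 (3 after TMM scaling, and 2 to 8 in single-library removals). Cd163, the haemoglobin scavenger receptor of resident macrophages (chr6:124304656-124330527), stood at 12.0, 11.4 and 14.5 TPM with vehicle, 32.3, 27.5 and 29.9 TPM with weekly and 15.8, 15.5 and 17.7 TPM with daily prednisone. Weekly libraries were all above the others, a log2 fold change of 1.19 ± 0.11, adjusted p = 0.00205 against vehicle. Lyve1, a hyaluronan receptor of lymphatic endothelium and of perivascular macrophages, stood at 8.90, 7.26 and 7.22 TPM with vehicle and 22, 16.4 and 20.9 TPM with weekly prednisone (1.23 ± 0.13, adjusted p = 0.00306). Itgam, which encodes the integrin CD11b, stood at 12.1, 10.7 and 12.3 against 24.8, 17.8 and 19.8 TPM (0.77 ± 0.12, adjusted p = 0.014). Each of these has weekly 1 as its highest library. The lysozyme gene Lyz2 rose by 0.41 ± 0.08 (adjusted p = 0.0249) and the mannose receptor Mrc1 by 0.54 ± 0.13 (adjusted p = 0.0365). For Mrc1 the daily libraries, at 46.7, 47.6 and 48.2 TPM, lay within the range of the weekly ones, at 54.9, 42.0 and 47.2 TPM. The summed level of the 21 macrophage markers overlapped between groups, at 3305, 2456 and 2659 TPM with vehicle and 3733, 3125 and 3400 with weekly prednisone.

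Csf1, the growth factor on which macrophages depend, stood at 29.9, 32.4 and 32.8 TPM with vehicle and 55.6, 44.6 and 49.3 TPM with weekly prednisone (0.63 ± 0.09, adjusted p = 0.00879). It belongs to the cytokines and receptors, of which 5 of 18 were called higher and 0 lower (2 after TMM scaling, and 1 to 8 in single-library removals). The interleukin-1 receptor Il1r1 went from 8.69, 9.25 and 10.8 to 18.6, 14.4 and 16.3 TPM (0.72 ± 0.13, adjusted p = 0.0196), and the interleukin-6 receptor Il6ra rose by 0.54 ± 0.13 (adjusted p = 0.0437). Il6 itself was not tested because fewer than 3 libraries held 1 TPM of it, and it reached no more than 0.643 TPM with vehicle and 1.33 TPM with weekly prednisone. Complement had 6 of 18 members called higher and 0 lower (2 higher and 1 lower after TMM scaling, and 0 to 7 higher in single-library removals). Its central component C3 stood at 311, 337 and 335 against 422, 432 and 409.9 TPM (0.36 ± 0.06, adjusted p = 0.0125). The C1 inhibitor Serping1 rose by 0.28 ± 0.05 (adjusted p = 0.0201).

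Of the 11 macrophage, cytokine, complement and adipokine genes considered together (Retnla, below, included), Cd163, Lyve1 and Csf1 were called in every single-library removal. The other 8 calls were lost without vehicle 3 (8), weekly 3 (8), vehicle 2 (5), weekly 1 (4), daily 1 (3), daily 3 (3), vehicle 1 (2) and weekly 2 (2), with an adjusted p of at most 0.127. After TMM scaling Lyz2, Mrc1, C3, Serping1, Il6ra and Retnla were not called (adjusted p 0.0558 to 0.266).

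Stromal progenitor markers had the largest share of calls among the cell type lists described, with 8 of 15 higher, 0 lower and a median of 0.51 (5 after TMM scaling, and 1 to 9 in single-library removals). The sialomucin Cd34 stood at 72.1, 79.9 and 78.3 TPM with vehicle and 129, 111 and 119 TPM with weekly prednisone (0.63 ± 0.08, adjusted p = 0.00494). Cd55, a complement decay factor found on interstitial progenitors, stood at 33.7, 30.4 and 27.5 against 52.9, 49.2 and 48.8 TPM (0.71 ± 0.12, adjusted p = 0.0175). Pi16, which marks fibroblasts at the root of the stromal lineage, stood at 33.7, 29.1 and 28.9 against 50.4, 57.4 and 52.7 TPM (0.79 ± 0.17, adjusted p = 0.0294). The groups were apart for each of the 3 genes. Wnt2, a secreted Wnt ligand, was low, at 0.545, 0.597 and 0.479 TPM with vehicle and reached 2.42, 1.85 and 1.83 TPM with weekly prednisone (0.97 ± 0.20, adjusted p = 0.0271). The surface antigen Ly6a and the proteoglycan Dcn rose by 0.51 ± 0.10 (adjusted p = 0.0218) and 0.27 ± 0.06 (adjusted p = 0.03). Cd34 was called in every single-library removal, the other 5 were lost without vehicle 3 (5), weekly 3 (5), weekly 1 (4), vehicle 1 (3), vehicle 2 (2), weekly 2 (1), daily 1 (1) and daily 3 (1) with an adjusted p of at most 0.0965, and Ly6a and Dcn were not called after TMM scaling. The summed level of the 16 markers overlapped, at 4604, 5665 and 5254 TPM with vehicle and 6104, 5459 and 5684 TPM with weekly prednisone.

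Other genes of the stroma and its surroundings were among the 48 called in every single-library removal, and 13 of them are given here, chosen after their values were seen. Cd248 (endosialin), a surface protein of fibroblasts and pericytes, stood at 39.3, 34.9 and 36.9 TPM with vehicle and 74.7, 65.8 and 67.6 TPM with weekly prednisone (0.89 ± 0.07, adjusted p = 0.00146). The fibroblast antigen Thy1 stood at 20.6, 22 and 24.5 against 41.6, 35.1 and 35.2 TPM (0.71 ± 0.10, adjusted p = 0.0107), and the hyaluronan receptor Cd44 at 20.1, 18.9 and 19.9 against 35.3, 30.6 and 31.9 TPM (0.70 ± 0.08, adjusted p = 0.00412). Every weekly value of these genes was above every vehicle value. Tppp3, which bundles microtubules, stood at 99.7, 74.8 and 81.0 TPM with vehicle and 193, 177 and 194 TPM with weekly prednisone (1.14 ± 0.12, adjusted p = 0.00306). The collagen-binding integrin Itga11 went from 2.18, 2.09 and 2.27 to 5.74, 4.84 and 5.78 TPM (1.02 ± 0.13, adjusted p = 0.00656). Fgf18, a secreted fibroblast growth factor, went from 2.15, 2.90 and 2.48 to 8.24, 6.66 and 6.38 TPM (1.20 ± 0.14, adjusted p = 0.00412). The daily libraries of Tppp3 and Itga11 lay at 69.6, 86.0 and 68.9 TPM and 1.87, 1.56 and 1.84 TPM, within or below the vehicle range.

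Igfbp3, which binds insulin-like growth factors, rose by 0.92 ± 0.12 (adjusted p = 0.0085), and Emilin2, an elastic fibre glycoprotein, by 0.88 ± 0.11 (adjusted p = 0.00644). The endothelial and junctional protein Heg1 rose by 0.88 ± 0.10 (adjusted p = 0.00423), the chemokine-scavenging receptor Ackr3 by 0.79 ± 0.09 (adjusted p = 0.00423), and the adhesion receptor Adgrd1 by 0.90 ± 0.09 (adjusted p = 0.00306). Gfpt2 and Ugdh, enzymes that supply amino sugars and glucuronic acid for glycans such as hyaluronan, were also higher. Gfpt2 stood at 12.5, 14.2 and 15.2 TPM with vehicle and 30, 27.1 and 26.8 TPM with weekly prednisone (0.95 ± 0.11, adjusted p = 0.00412). Ugdh stood at 31.2, 30.7 and 32.0 against 45.8, 46.9 and 47.9 TPM (0.57 ± 0.06, adjusted p = 0.00397).

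Endothelial markers were called higher in 4 of 15 members and lower in 0 (median 0.32), and all 4 calls stood after TMM scaling, with 1 to 7 higher in single-library removals. Besides Lyve1 these were the receptors Flt1, at 10.6, 11.6 and 11.6 TPM with vehicle and 21.1, 16.0 and 18 TPM with weekly prednisone (0.65 ± 0.11, adjusted p = 0.0179), and Tek (0.63 ± 0.16, adjusted p = 0.0434), and the adhesion molecule Esam (0.47 ± 0.08, adjusted p = 0.0187). Mesothelial markers had the highest median of the lists with a call, 0.69, and 6 of 14 were called higher, but only 1 after TMM scaling and 0 to 7 in single-library removals. Krt19, a keratin of simple epithelia, stood at 11.9, 14.6 and 14.8 TPM with vehicle and 18.6, 27.2 and 23.5 TPM with weekly prednisone (0.70 ± 0.16, adjusted p = 0.0353), and the mesothelial transcription factor Wt1 at 6.31, 7.29 and 6.0 against 8.75, 12.5 and 12.3 TPM (0.68 ± 0.14, adjusted p = 0.0279). Upk1b, Krt8 and Rspo1 rose by 0.75 ± 0.15, 0.70 ± 0.15 and 0.69 ± 0.18 (adjusted p = 0.0233, 0.0272 and 0.0463). Among the weekly libraries, weekly 2 and weekly 3, which also held the muscle transcripts, were the highest for Krt8, Wt1, Krt19 and Rspo1. Without the 3 libraries high in muscle transcripts the mesothelial median was 0.25, and the differences of these 4 genes were 0.41, 0.38, 0.41 and 0.44. Of the 9 vessel and mesothelial genes named, Lyve1 alone was called in every single-library removal, and calls were lost without vehicle 3 (8), weekly 3 (8), vehicle 1 (6), vehicle 2 (3), weekly 2 (3), daily 1 (3), weekly 1 (2) and daily 3 (2), with an adjusted p of at most 0.124.

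**Figure D3:**
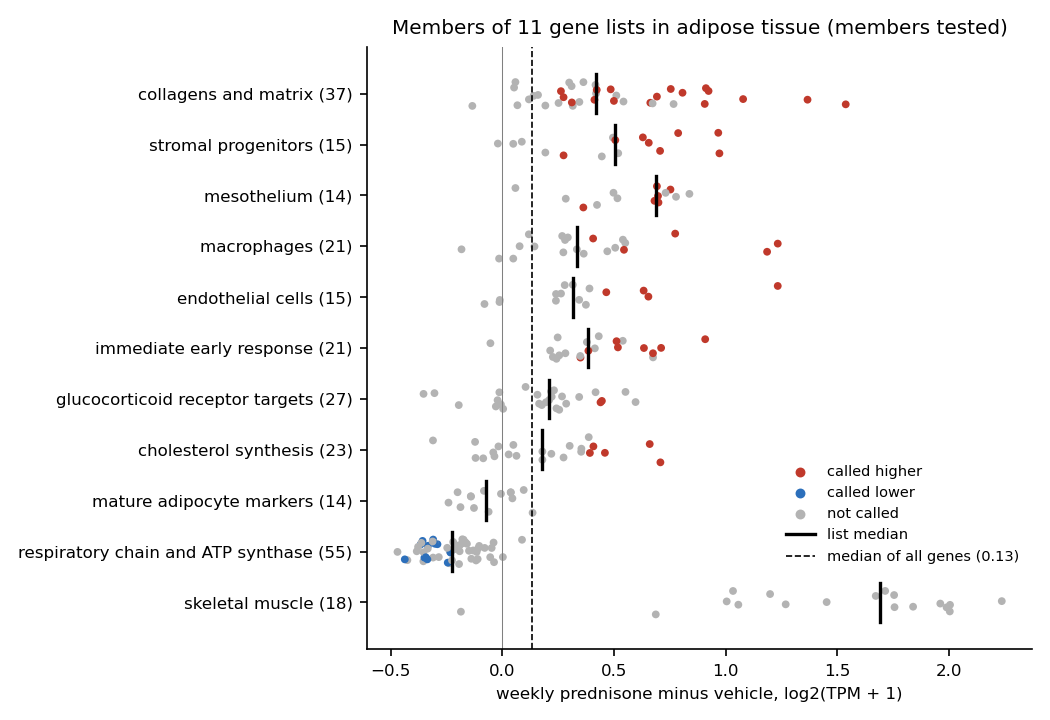
Log2 difference between weekly prednisone and vehicle (horizontal axis) for each tested member (point) of 11 gene lists (rows, with the number tested), red where called higher, blue where called lower and grey where not called; black bars are list medians and the dashed line is the median of all genes, 0.13. Matrix (median 0.42), stromal (0.51) and mesothelial (0.69) members lie mostly right of the dashed line and the respiratory chain (-0.23) left of it, while skeletal muscle (1.69) spreads far to the right with 0 of 18 called.

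Of 14 markers of mature adipocytes 0 were called (median -0.07), and 4 were called lower after TMM scaling. Adiponectin (Adipoq) stood at 3033, 3328 and 3181 TPM with vehicle and 3756, 3141 and 2989 TPM with weekly prednisone (adjusted p = 0.749), with overlapping groups. Leptin (Lep) stood at 1328, 1513 and 1449 against 1346, 1464 and 1473 TPM (adjusted p = 0.991), with the groups again overlapping. The 95% interval of the log2 difference ran from -0.15 to 0.24 for Adipoq and from -0.19 to 0.19 for Lep.

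Of 18 adipokines, 1 was called higher and 2 lower, against 0 and 3 after TMM scaling. Of all genes 5.72% were higher and 1.72% lower, against 2.88% and 5.94% after TMM scaling, so the 1 higher adipokine is near the share of all genes. Chemerin (Rarres2), a chemoattractant that fat secretes, stood at 2624, 2457 and 2507 TPM with vehicle and 1828, 2071 and 2078 TPM with weekly prednisone (-0.35 ± 0.07, adjusted p = 0.0215). Neuregulin 4 (Nrg4) stood at 91.0, 115 and 110.2 against 72.4, 81.4 and 71.8 TPM (-0.48 ± 0.10, adjusted p = 0.0271). Retnla, a secreted resistin-like protein of alternatively activated macrophages, was higher, at 1108, 840.4 and 990.4 TPM with vehicle and 1185, 1748 and 1583 TPM with weekly prednisone (0.61 ± 0.14, adjusted p = 0.0356; 0.156 after TMM scaling), a difference of 0.28 without the libraries high in muscle transcripts. The 3 calls were lost without vehicle 3 (3), weekly 3 (3), vehicle 2 (2), vehicle 1 (1), weekly 1 (1), weekly 2 (1), daily 1 (1) and daily 3 (1), with an adjusted p of at most 0.106.

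Genes of fatty acid synthesis were called higher in 5 of 20 members (0 lower, median 0.25), but after TMM scaling 1 was higher and 1 lower, and single-library removals left 1 to 6 higher. ATP citrate lyase (Acly), which makes cytosolic acetyl-CoA, stood at 115, 129 and 127 TPM with vehicle and 174, 186 and 189.5 TPM with weekly prednisone (0.56 ± 0.07, adjusted p = 0.00656). The desaturases Fads1, Fads2 and Scd2 rose by 0.38 ± 0.08, 0.59 ± 0.15 and 0.31 ± 0.07 (adjusted p = 0.0236, 0.0464 and 0.0401), as did the sterol sensor Insig1, by 0.41 ± 0.08 (adjusted p = 0.0269). Fasn, the fatty acid synthase, was not called, at 1015, 1230.1 and 1122 TPM with vehicle and 1223, 1443 and 1412 TPM with weekly prednisone (adjusted p = 0.147). Cholesterol synthesis had 5 of 23 members called higher and 0 lower, with 3 higher and 2 lower after TMM scaling and 0 to 9 higher in single-library removals. Lanosterol synthase (Lss) stood at 29.3, 26.8 and 23.8 against 44.1, 40.6 and 42.8 TPM (0.66 ± 0.11, adjusted p = 0.0146), and the demethylase Cyp51, which acts on lanosterol, rose by 0.39 ± 0.10 (adjusted p = 0.0465).

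In lipolysis and lipid droplets 0 of 20 members were called higher and 2 lower (0 and 4 after TMM scaling, and 0 to 2 lower in single-library removals). Of all genes 1.72% were lower, and 5.94% after TMM scaling. G0s2, an inhibitor of adipose triglyceride lipase, stood at 1047, 1379.6 and 1268 TPM with vehicle and 839.9, 800.0 and 839 TPM with weekly prednisone (-0.57 ± 0.10, adjusted p = 0.0182). The groups did not overlap, but the vehicle libraries spread more widely than the gap between the groups. Cidea, a lipid droplet protein also used as a marker of beige fat, stood at 88.1, 67.6 and 74.9 against 55.0, 45.4 and 50.8 TPM (-0.59 ± 0.13, adjusted p = 0.0323). None of the 16 triglyceride synthesis genes and none of the 20 insulin signalling genes was called, where 7.43% of all genes were. After TMM scaling 4 and 2 of them were called lower and 0 higher, where 5.94% of all genes were lower. Of the 9 lipid genes named as called, Acly was called in every single-library removal. The other 8 were lost without vehicle 3 (8), weekly 3 (8), weekly 1 (6), vehicle 1 (5), vehicle 2 (4), weekly 2 (4), daily 1 (3) and daily 3 (3), with an adjusted p of at most 0.129, and Fads1, Scd2, Fads2, Insig1 and Cyp51 were not called after TMM scaling.

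Among nuclear genes of mitochondrial energy metabolism the calls were downward. Of 55 respiratory chain and ATP synthase genes, 12 were called lower and 0 higher (median -0.23), and only 2 lay above 0. The count of 12 went to 25 after TMM scaling and to between 0 and 16 in single-library removals, beside 1.72% of all genes lower as deposited and 5.94% after TMM scaling. The complex I subunit Ndufs8 stood at 136, 136 and 130.3 TPM with vehicle and 102, 107 and 108 TPM with weekly prednisone (-0.34 ± 0.06, adjusted p = 0.0147), and Ndufc2 at 366, 352 and 328 against 244, 255 and 272 TPM (-0.44 ± 0.08, adjusted p = 0.018). Ndufb9, also of complex I, Uqcrc1 of complex III, Cox6b1 of complex IV and Atp5g3 of ATP synthase fell by 0.34, 0.30, 0.37 and 0.33 on the log2 scale (adjusted p = 0.0264, 0.0297, 0.0362 and 0.0205). Fatty acid oxidation had 3 of 26 members lower (12 after TMM scaling, 0 to 3 in single-library removals), the tricarboxylic acid cycle 2 of 20 (9, and 0 to 3) and mitochondrial ribosomal proteins 3 of 45 (15, and 0 to 6), with 0 higher in each list. The same shares of all genes, 1.72% and 5.94% after TMM scaling, stand beside these counts. Among them the thiolase Acaa2 changed by -0.29 ± 0.06, the isocitrate dehydrogenase Idh2 by -0.33 ± 0.06 and Mrps34 by -0.38 ± 0.06 (adjusted p = 0.0236, 0.0187 and 0.0155).

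Of the 13 genes of the mitochondrial genome 1 was called higher and 0 lower, near the 5.72% of all genes called higher. Together the 13 genes took 12.9% to 13.5% of the TPM in the vehicle libraries and 14.5% to 14.8% in the weekly libraries. The daily libraries were higher still, at 16.9%, 15.3% and 16.6%. The called gene was mt-Atp8, at 23490.0, 23174 and 22496 TPM with vehicle and 31645, 28122 and 28520.0 TPM with weekly prednisone (0.35 ± 0.08, adjusted p = 0.0405; 0.377 after TMM scaling). In the shortest quartile of genes by transcript length 180 were called lower and 93 higher, against 4 lower and 302 higher in the longest. With the trend on length removed 12 respiratory chain genes were called lower and 0 higher, where 385 of all 14081 genes were lower and 353 higher. The lists of higher genes shrank under that setting. Collagens and matrix went from 17 to 10 higher, with 1 lower, and stromal progenitors from 8 to 5. Folding genes of the endoplasmic reticulum went from 8 to 1 higher, and fatty acid synthesis from 5 to 1.

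Outside the mitochondria, the autophagosome protein gene Map1lc3a stood at 616, 659 and 611 TPM with vehicle and 423, 417 and 435 TPM with weekly prednisone (-0.56 ± 0.06, adjusted p = 0.00306). The lactate dehydrogenase gene Ldhb fell from 77.2, 80.0 and 83.5 to 51.6, 60.2 and 54.3 TPM (-0.53 ± 0.08, adjusted p = 0.0123), and Gstt1, a glutathione transferase chosen after its values were seen, from 101, 108 and 112 to 70.6, 71.1 and 67.8 TPM (-0.61 ± 0.07, adjusted p = 0.00412). In the endoplasmic reticulum, 8 of 24 folding and stress genes were called higher and 1 lower, but 0 higher and 2 lower after TMM scaling, and 0 to 9 higher in single-library removals. The chaperone Hsp90b1 and the disulfide isomerase Pdia3 rose by 0.43 ± 0.08 and 0.36 ± 0.06 (adjusted p = 0.0209 and 0.0187). Ddit3, the stress factor CHOP, was the lower gene, at 128, 131 and 131 TPM with vehicle and 92.2, 108 and 104 TPM with weekly prednisone (-0.35 ± 0.07, adjusted p = 0.0225). Of the 16 mitochondrial, folding and related genes named, Map1lc3a and Gstt1 were called in every single-library removal, and the others were lost without vehicle 3 (14), weekly 3 (14), vehicle 2 (7), vehicle 1 (5), weekly 1 (5), daily 1 (2) and daily 3 (1), with an adjusted p of at most 0.127. After TMM scaling mt-Atp8, Pdia3 and Hsp90b1 were not called.

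Among called genes with groups apart and a mean of 5 TPM or more, predicted genes and antigen receptor segments aside, the 10 largest rises were those of Rnase2a, Cyp2e1, Thbs1, Tmem100, Fbn1, Sned1, Tnfrsf11b, Ms4a4a, Lyve1 and Prg4, and all 10 were called after TMM scaling. Rnase2a, a ribonuclease of eosinophils with near-identical paralogs between which reads may be split, stood at 16.6, 27.7 and 27.2 TPM with vehicle and 65.6, 132 and 106 TPM with weekly prednisone (2.02 ± 0.26, adjusted p = 0.00709). Cyp2e1, a cytochrome P450, stood at 20.6, 16.5 and 18.3 TPM with vehicle, 57.1, 82.2 and 80.5 TPM with weekly and 33.3, 88.2 and 34.9 TPM with daily prednisone (1.92 ± 0.32, adjusted p = 0.0156 against vehicle). Its highest libraries, weekly 2, weekly 3 and daily 2, were those with the muscle transcripts, and without them the difference was 1.58. Tmem100, a membrane protein of endothelium, stood at 7.69, 7.05 and 6.88 against 25.1, 18.4 and 20.1 TPM (1.43 ± 0.12, adjusted p = 0.00146), and the matrix gene Sned1 at 9.02, 8.86 and 7.10 against 33.2, 17.4 and 20.7 TPM (1.36 ± 0.26, adjusted p = 0.0209). Tnfrsf11b, which encodes the decoy receptor osteoprotegerin, rose by 1.35 ± 0.30 (adjusted p = 0.0345; 0.72 without the libraries high in muscle transcripts), Ms4a4a, a macrophage membrane protein, by 1.34 ± 0.18 (adjusted p = 0.0085) and the lubricant proteoglycan Prg4 by 1.19 ± 0.20 (adjusted p = 0.0175). Rnase2a, Thbs1, Tmem100, Ms4a4a and Lyve1 were called in every single-library removal, and calls of the other 5 were lost without vehicle 3 (5), weekly 3 (4), vehicle 1 (1), vehicle 2 (1) and weekly 2 (1), with an adjusted p of at most 0.106.

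Among the 10 largest falls chosen in the same way, S100a8, a calcium-binding protein of neutrophils, stood at 124, 99.0 and 97.6 TPM with vehicle, 65.3, 62.6 and 60.1 TPM with weekly and 66.6, 63.4 and 64.9 TPM with daily prednisone (-0.75 ± 0.09, adjusted p = 0.00494 for weekly). Both prednisone groups lay below every vehicle library. The 11 neutrophil markers summed to 143, 110.5 and 113 TPM with vehicle and to 78.3, 70.4 and 70.5 TPM with weekly prednisone. S100a8 itself made up most of each sum, so the sums largely repeat its values and do not describe the other markers. Only 3 of the 11 passed the filter, and S100a8 was the only one called. Lars2, the mitochondrial leucyl-tRNA synthetase, fell from 439, 453 and 453 to 206, 199 and 195 TPM (-1.16 ± 0.21, adjusted p = 0.0187). It contains sequence shared with mitochondrial ribosomal RNA and is reported as uncertain. The growth factor gene Gdf5 fell from 5.87, 7.18 and 7.08 to 4.45, 3.51 and 2.32 TPM (-0.83 ± 0.18, adjusted p = 0.0305). Mnd1, Efcab8, Bpifb6 and the histone gene Hist1h4a changed by -0.86 ± 0.20, -0.76 ± 0.15, -0.75 ± 0.19 and -0.71 ± 0.12 (adjusted p = 0.04, 0.0236, 0.0443 and 0.0152). Snurf and Jmjd7, which overlap neighbouring genes and are uncertain, fell by 0.78 each (adjusted p = 0.021 and 0.0251). These 9 genes were all called after TMM scaling, but only S100a8 in every single-library removal. Calls were lost without vehicle 3 (8), weekly 3 (8), vehicle 2 (4), weekly 1 (3), daily 3 (3), vehicle 1 (2), weekly 2 (2) and daily 1 (2), with an adjusted p of at most 0.128.

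**Figure D4:**
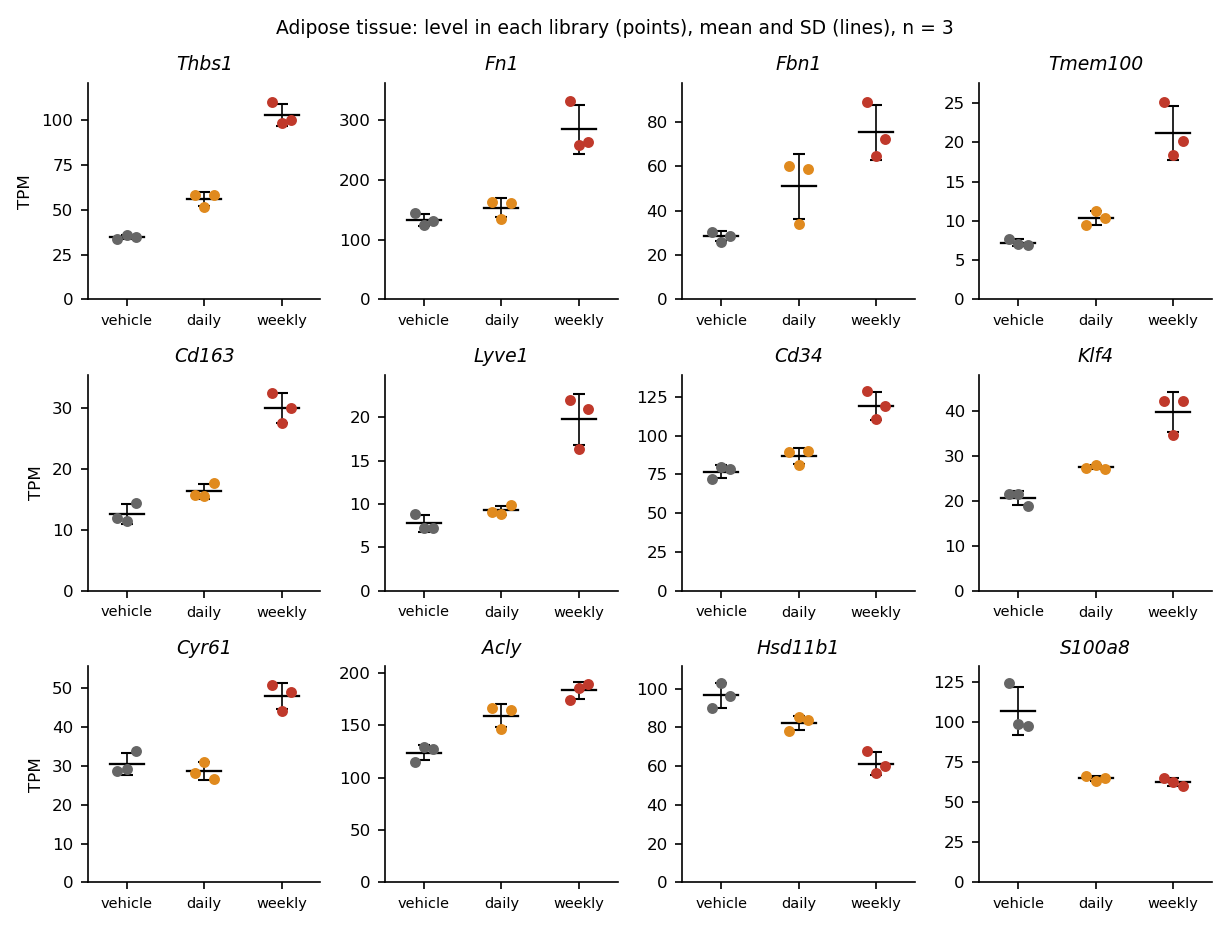
Level in TPM (vertical axes, from 0) of 12 genes in each adipose library (points) by group, with the mean and SD of 3 libraries as lines. Weekly libraries lie above all vehicle libraries in 10 panels and below them for Hsd11b1 and S100a8; daily libraries lie between the groups for Thbs1 and closer to vehicle than to weekly for Fn1.

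Transcripts were also examined one by one, since a gene's sum can hide a shift between them. Of 36256 transcripts above the filter 31 were called, 26 higher and 5 lower. The main transcript of Fn1, ENSMUST00000185408.6, held 57.0%, 55.7% and 56.5% of the gene's TPM in the vehicle libraries and 35.8%, 55.4% and 48.0% in the weekly libraries, so weekly 2 was close to vehicle. For Cd163 the transcript ENSMUST00000112541.7 held 28.5%, 2.90% and 29.1% with vehicle and 8.23%, 9.11% and 7.44% with weekly prednisone, and vehicle 2 lay below every weekly library. The shares are estimates, since reads common to several transcripts have to be divided between them, and they were not tested.

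Weekly and daily prednisone, which differ in the interval and in the total amount given, were compared directly. Of the 14150 genes 44 (0.311%) differed, 42 of them higher with weekly prednisone, by 0.33 to 2.54 on the log2 scale over all 44. Thbs1 was higher with weekly than with daily prednisone by 0.87 ± 0.07 (adjusted p = 0.00378) and Tppp3 by 1.32 ± 0.12 (adjusted p = 0.00378). Fn1 differed by 0.88 ± 0.11, Cd163 by 0.84 ± 0.11, Lyve1 by 1.01 ± 0.13, Tmem100 by 0.95 ± 0.12 and Cyr61 by 0.72 ± 0.09 (adjusted p = 0.018 for each). Itga11 (1.23 ± 0.13, adjusted p = 0.0138), Ctgf (0.77 ± 0.11, adjusted p = 0.027) and C3 (0.48 ± 0.06, adjusted p = 0.0161) were also higher with weekly prednisone. Hsd11b1 did not pass this test, at -0.42 ± 0.08 (adjusted p = 0.0739), nor did Fkbp5 (0.19 ± 0.09, adjusted p = 0.314), S100a8 (-0.05 ± 0.09, adjusted p = 0.788) or Mrc1 (0.01 ± 0.13, adjusted p = 0.982). Under TMM scaling 11 genes differed, and 2 were left without weekly 3, without daily 1 or without daily 3, 17 without weekly 1, 24 without weekly 2 and 20 to 47 without a vehicle library.

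Daily prednisone against vehicle, which shares the vehicle libraries with the weekly comparison, gave 1 called gene (0.00707%), Thbs1, at 0.67 ± 0.07 (adjusted p = 0.0498), and 1305 genes at an unadjusted p under 0.05. No gene was called without daily 1 or without daily 3, and 14 genes were called without vehicle 1, 2 without vehicle 3 and 3 without daily 2. Set side by side, the log2 difference from vehicle was 1.08 ± 0.11 with weekly and 0.20 ± 0.11 with daily prednisone for Fn1, 1.19 ± 0.11 and 0.35 ± 0.11 for Cd163, and -0.65 ± 0.08 and -0.22 ± 0.08 for Hsd11b1. For S100a8 it was -0.75 ± 0.09 and -0.70 ± 0.09, and for Ms4a4a 1.34 ± 0.18 and 1.00 ± 0.18.

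The weekly change in adipose tissue was also compared with that in quadriceps muscle of the same mice. Over 11737 genes expressed in both tissues 326 (2.78%) differed, 319 of them with the higher value in adipose tissue. Thbs1 changed by 1.54 ± 0.07 in adipose tissue and by 0.14 ± 0.14 in muscle (difference 1.40, adjusted p = 0.0201). Fn1 changed by 1.08 ± 0.11 and -0.10 ± 0.19 (difference 1.18, adjusted p = 0.0355), and Cd163 by 1.19 ± 0.11 and 0.06 ± 0.13 (difference 1.12, adjusted p = 0.0312). Hsd11b1 changed by -0.65 ± 0.08 and 0.04 ± 0.10 (difference -0.69, adjusted p = 0.0483). In muscle alone none of these 4 genes was called (adjusted p = 0.659, 0.84, 0.846 and 0.884). How many of the 12246 genes tested in muscle were called was not counted, so these 4 cannot be set beside a share of all genes. Fkbp5, with 0.45 ± 0.09 in adipose tissue and 0.59 ± 0.12 in muscle, did not pass the test of the difference (adjusted p = 0.487). After TMM scaling 0 genes passed, with 2387 at an unadjusted p under 0.05. The count was also 0 without vehicle 2 or weekly 1, 1 without vehicle 3 or weekly 3, 55 without vehicle 1 and 191 without weekly 2.

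**Figure D5:**
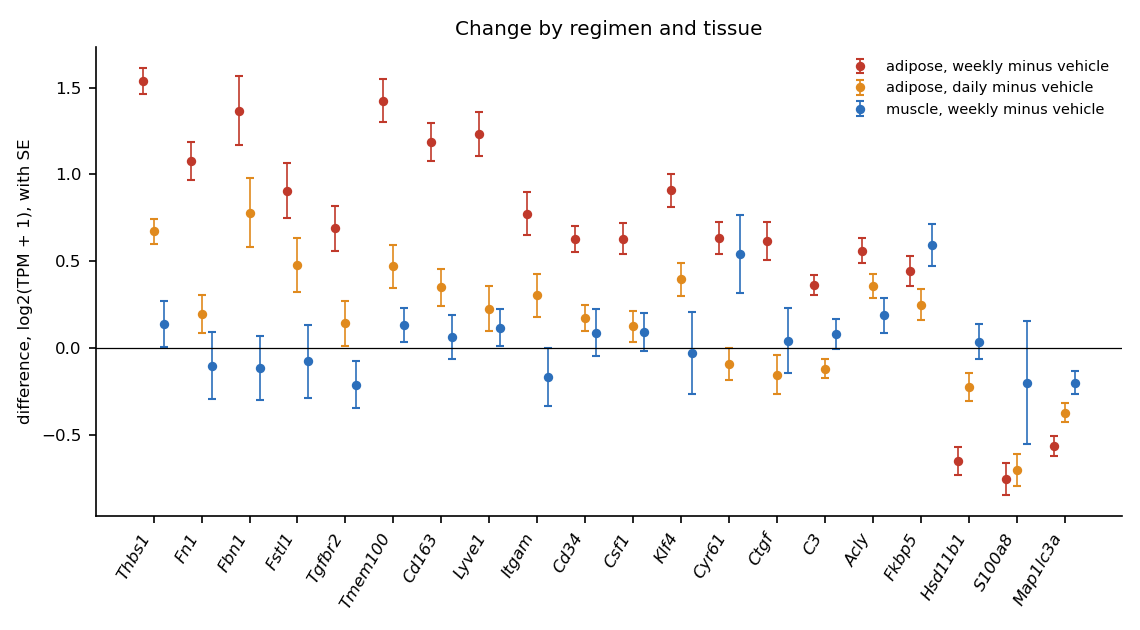
Log2 difference with its SE (vertical axis) for 20 genes (horizontal axis) in 3 comparisons: weekly minus vehicle in adipose tissue (red), daily minus vehicle in adipose tissue (orange) and weekly minus vehicle in muscle (blue). The red points of Thbs1 (1.54), Fn1 (1.08) and Cd163 (1.19) lie above the orange points (0.67, 0.20 and 0.35) and the blue points (0.14, -0.10 and 0.06); the red and orange comparisons share the vehicle libraries.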

How the data were processed

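RNA of 18 libraries (9 mice, muscle and adipose tissue) was measured by stranded mRNA sequencing, per the labels' protocols. The authors deposited TPM for 105129 transcripts, and the submitters' processing notes name Trimmomatic, HISAT2, kallisto and mm10, without versions, roles or order. Values were summed per gene symbol, and every column of the table belongs to a labelled library. Genes with at least 1 TPM in 3 or more adipose libraries were tested as log2(TPM + 1), so fold changes of low genes are understated. All 9 adipose libraries were fitted in 3 groups with limma 3.58.1 (R 4.3.3), using lmFit and a trended eBayes. P-values were adjusted over all genes with Benjamini-Hochberg and called under 0.05. SE are those of limma. The tissue difference was fitted on each mouse's adipose minus muscle value, with libraries matched by the number in the labels.

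Genes were named by rule: the 10 largest rises and 10 largest falls among called genes with groups apart and a mean of at least 5 TPM, a panel of 34 genes, and up to 6 called members with the smallest p of each of 54 gene lists (2 members where none was called). Predicted genes, pseudogenes and antigen receptor segments were left out, and only part of the genes the rule gives is printed; 1 of the 10 largest falls is not reported here. Genes, lists and comparisons were chosen with earlier results of these data known. Positions come from GENCODE M21 (GRCm38), in which 103635 transcripts matched by ID, and promoter windows from RefSeq (GRCm38.p6). Scripts were tested on simulated data. Alternatives were TMM and quantile scaling, pseudocounts of 0.1 and 5, other filters, other sets of libraries, a robust prior, a replicate block, transcripts in place of genes and each library left out. Removing the third library of every group, mitochondrial or skeletal muscle genes, or adding a muscle covariate were alternatives as well. Leaving out each daily library or the libraries high in muscle transcripts, removing the length trend and median centring were added after seeing the data.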

Additional observations from a re-analysis of the deposited data

Results flagged for a closer look

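The change after weekly prednisone differed between adipose tissue and quadriceps muscle of the same mice for 22 of the genes named, tested with limma on each mouse's adipose minus muscle value. Of all 11737 genes in this test 326 (2.78%) differed. The 22 come from 115 genes, of which 108 were called in adipose tissue, and the same adipose libraries enter this test. A high count among them is therefore built in and is no result about these genes. The adipose change was the higher for Thbs1 (1.40), Tmem100 (1.29), Fbn1 (1.48), Lyve1 (1.11), Fn1 (1.18), Fstl1 (0.98), Tgfbr2 (0.90), Cd163 (1.12), Itgam (0.94), Flt1 (0.60), Fads2 (0.73), Il6ra (0.68), Adgrd1 (0.91), Heg1 (0.75), Itga11 (0.86), Igfbp3 (1.03), Fgf18 (1.19), Ackr3 (0.67), Gfpt2 (0.79) and Emilin2 (0.93), in each case given as the adipose minus the muscle log2 change. It was the lower for Hsd11b1 (-0.69) and Ldhb (-0.56). Adjusted p-values ran from 0.0201 to 0.0483, and after TMM scaling none of the 22 passed (adjusted p from 0.0739 to 0.14). The difference rests on all 9 mice, and without vehicle 2 or weekly 1 no gene passed.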

How the results depend on the processing

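For weekly prednisone against vehicle, 1052 genes were called (809 higher, 243 lower). Other settings gave, as called, higher and lower: quantile normalization 674, 342 and 332; no filter on low values 291, 220 and 71; weekly and vehicle libraries alone 485, 397 and 88; both tissues in 1 fit 3005, 2464 and 541. A muscle covariate gave 4164, 3539 and 625, and the removal of the 3 libraries high in muscle transcripts 2138, 1701 and 437. TMM scaling gave 407 higher and 841 lower, the removed length trend 353 and 385, and median centring 460 and 627. Without replicate 3 of every group 1 gene was called, higher, and 0 lower, with 1941 at an unadjusted p under 0.05 by limma. Over transcripts 31 were called, 26 higher and 5 lower. Single-library removals gave 64 to 1511 called, 56 to 1206 higher and 8 to 305 lower. Weekly against daily prednisone (44 called) gave 11 after TMM scaling, 72 with a filter at 5 TPM, 0 without replicate 3 of every group and 2 to 47 in single-library removals (2 to 33 where a weekly or daily library was removed). Daily prednisone against vehicle (1 called) gave 0 with a pseudocount of 5, 2 with a filter at 5 TPM, 0 without replicate 3 of every group and 0 to 14 in single-library removals. The tissue difference (326 called) gave 0 after TMM scaling, 657 with a pseudocount of 5, 1 without replicate 3 of every group and 0 to 191 in single-library removals. Residuals of the same replicate number correlated weakly, at 0.03, 0.01 and 0.05 between vehicle and weekly for numbers 1, 2 and 3. The correlations were 0.09, 0.19 and -0.06 between daily and weekly, and 0.06, 0.01 and -0.02 between daily and vehicle. A replicate block gave 806 called, of which 140 were lower, and 12, 0 and 0 in the other comparisons. The cause of these shifts was not tested. Settings that change the number of genes or libraries in a fit also change which ones enter it. No called gene that the text prints changed direction under any setting. In the removals of libraries this was fixed, since the weekly and vehicle values of each such gene did not overlap. Of the genes printed as not called, Tsc22d3 turned to 0.0109 without the mitochondrial genome, 0.0088 without replicate 3 of every group and 0.0384 without the libraries high in muscle transcripts. Mt1 turned to 0.0852 by quantile normalization and 0.0747 with the length trend removed, and Adipoq to -0.132 by TMM scaling and -0.0841 by median centring. Lep turned to 0.113 by quantile normalization, 0.0228 without the mitochondrial genome and 0.0461 with the muscle covariate. In single-library removals these genes ranged over -0.107 to 0.0577 (Tsc22d3), -0.0938 to 0.0864 (Mt1), -0.0529 to 0.112 (Adipoq) and -0.0537 to 0.0404 (Lep). No result with array weights is given.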
